A study of Rattus norvegicus with 6 samples.

Results

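Round spermatids marked by high Tssk5, Itih3 and Lrrc34 were taken from single-cell libraries of rat testis: 1048 of 11744 cells, or 8.92%. Each gene of the deposited normalized tables was z-scored over all cells, and each cell was scored by its mean z in 10 sets of 3 genes and joined the set with its highest score. The cells kept here were chosen by the measured levels of Tssk5, Itih3 and Lrrc34, so the levels of these genes, and of every gene compared between sets of cells, are descriptions and no test was made of them. The tissue came from 3 post-stressed rats, which had gone through a stress model of terrifying sound, and from 3 normal rats as controls. All were SD rats, a laboratory strain, and each animal gave 1 library made with the Singleron GEXSCOPE kit. The labels give no age, length of exposure or time of sampling.

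Round spermatids are the haploid cells that form when meiosis ends and before the nucleus elongates. In these cells the Golgi builds the acrosome, the enzyme-filled cap of the future sperm, the flagellum starts to grow, and transcription factors such as CREM switch on genes of late sperm formation. Many of the messages are stored and translated later, when histones give way to transition proteins and then to protamines.

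Of 6225 genes with a mean of at least 10 CPM, counts scaled to the same library total, over the cells and their 2 neighbours, 4819 (77.4%) had a mean level between that of the late meiotic cells marked by Aurka and Tpx2 and that of the round spermatids marked by Tex29 and Sun5. Above both neighbours were 1077 genes (17.3%), and below both 329 (5.29%), in means over the 5 libraries with enough cells of all 3 sets. The Tssk5, Itih3 and Lrrc34 high cells carried round spermatid markers at more than the level of the meiotic cells, held less of the message of meiotic division, and had mitochondrial RNA at a level between these neighbours. No gene differed between stressed and control animals past the threshold in the edgeR test.

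The libraries differed in depth and in their cells. Stressed replicates 1 to 3 gave 23, 110 and 240 of these cells, with 701292, 3637863 and 7413602 counts in sum, and control replicates 1 to 3 gave 247, 135 and 293 cells with 10317768, 4682673 and 15171965 counts. Stressed replicate 1 is thus the least precise library. The median cell had 27104 to 31189 counts in the stressed libraries and 34631 to 49187 in the control libraries. Stressed replicate 1 and control replicate 2 stood apart in the number of genes per cell, with medians of 3320 and 3453 genes, against 2145 to 2610 in the other 4 libraries. The highest number of genes in any cell was 3491 to 3499 in stressed and 3559 to 3996 in control libraries, and no cell of any set had more than 4.995% mitochondrial counts. Across libraries 2 cell barcodes were shared, and 0 of these were in the Tssk5, Itih3 and Lrrc34 high cells.

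Tssk5 encodes a testis-specific serine kinase, Itih3 a heavy chain of the inter-alpha-trypsin inhibitor family, and Lrrc34 a protein with leucine-rich repeats. All 3 genes were detected in 397 of the 1048 cells, a pair of them in 518 and a single one in 133. The median score was 1.71, and the median lead over a cell's second score was 0.854. Scores led by at least 0.5 in 733 cells (69.9%). Just inside the border, 71 cells led by less than 0.1, with a median score of 1.05, and just outside it 70 cells missed by less than 0.1, with a median score of 0.944.

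Tssk5 was the sharpest of the marks. Summed over the cells of a library, it stood at 306.6, 165 and 112 CPM in stressed replicates 1 to 3 and at 146.5, 256 and 99.5 CPM in control replicates 1 to 3. The groups overlapped, and stressed replicate 1 and control replicate 2 were the highest. The mean was 181 ± 82.7 CPM (SD, n = 6 libraries), against 15.3 ± 6.80 CPM in the Tex29/Sun5 cells and 3.78 ± 2.13 CPM in the late meiotic cells marked by Aurka and Tpx2. Here and below, means over a set of cells use each library with at least 20 cells of that set, which leaves out stressed replicate 1 for the Aurka/Tpx2 cells and for the pachytene cells marked by Psma8 and Piwil1 (n = 5).

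Itih3 and Lrrc34 were spread more widely over the neighbours. Itih3 averaged 385 ± 93.8 CPM, against 129.7 ± 36.6 CPM in the Aurka/Tpx2 cells and 47.5 ± 15.7 CPM in the Tex29/Sun5 cells. Lrrc34 averaged 346 ± 90.5 CPM, against 294 ± 33.8 CPM in the Aurka/Tpx2 cells and 55.9 ± 15.1 CPM in the Tex29/Sun5 cells, so it hardly separated the cells from late meiosis. With each cell thinned to 10000 counts, which every cell had, Tssk5 was detected in 42.7% of the cells (Wilson 95% interval 39.8 to 45.8), against 7.67% (6.48 to 9.07) of Tex29/Sun5 cells and 1.97% (1.29 to 2.99) of Aurka/Tpx2 cells. In the late spermatids marked by Oaz3 and Smcp the share was 0.252% (0.0858 to 0.739), and the median depths before thinning were 34431 and 27854 counts in the Tssk5, Itih3 and Lrrc34 high cells and the Oaz3/Smcp cells. Without thinning the shares were 52.0%, 12.9%, 3.19% and 0.504% in the same order of sets. Such intervals cover counting error only.

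**Figure D1:**
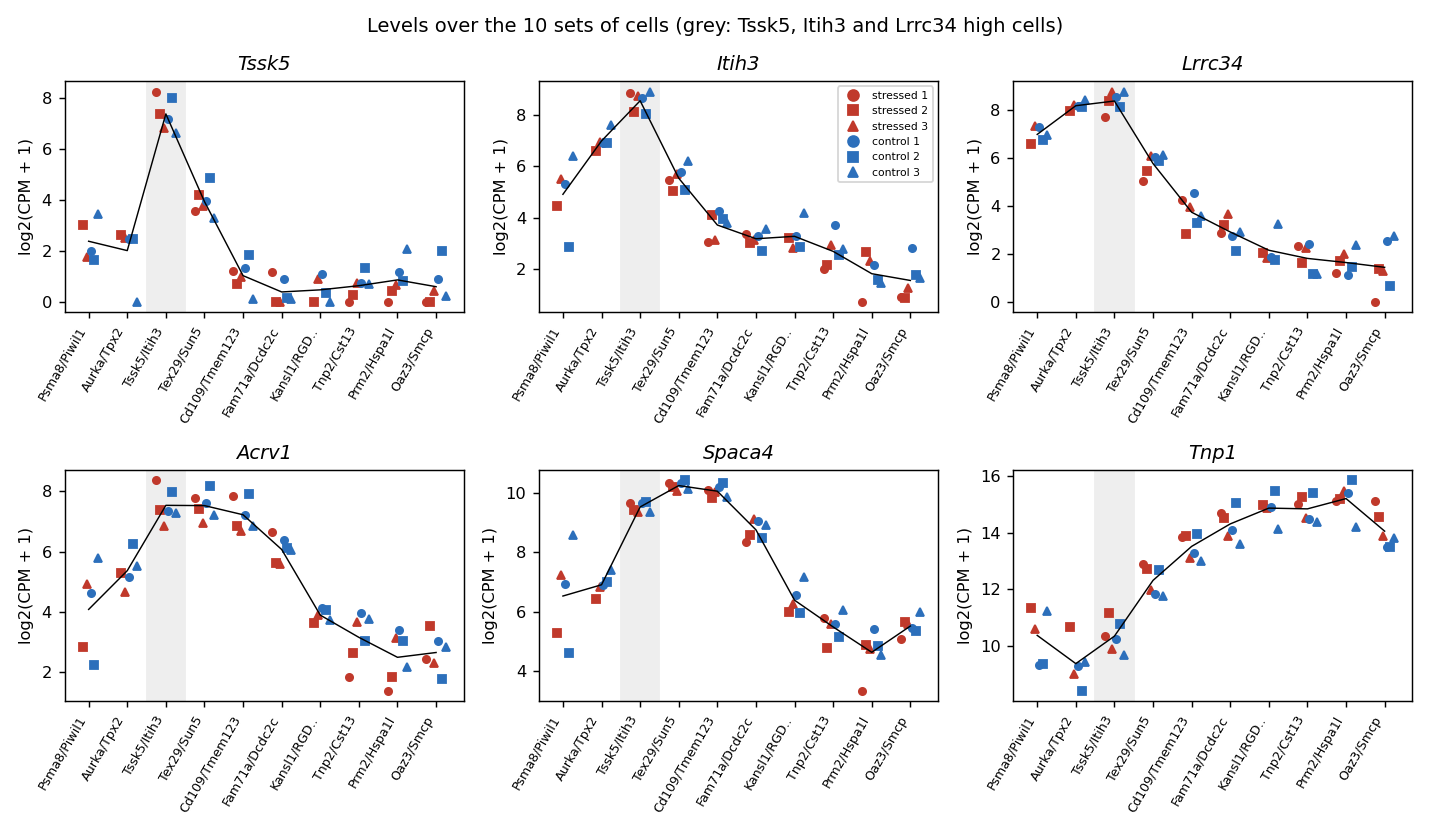
Each point is 1 library's level of a gene, as log2(CPM + 1) of counts summed over the cells of a set, with the 10 sets from meiosis at the left to late spermatids at the right. Circles, squares and triangles are replicates 1 to 3, red for stressed and blue for control, and the black line is the mean over libraries. Tssk5, at 181 CPM in the shaded set, peaks there, Acrv1 stays as high in the next set, and Tnp1, at 1388 CPM, is still far below its later levels.

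Markers written for each cell type of the testis were summed in the same way to describe the label. The lists hold genes that the rule used, such as Tex29 and Sun5, Aurka and Tpx2, Psma8 and Piwil1, and Oaz3 and Smcp. These contrasts between sets are thus partly fixed by the choice of cells. The 21 round spermatid markers found came to 8422 ± 445 CPM, against 3637 ± 452 CPM in the Aurka/Tpx2 cells and 10624 ± 434 CPM in the Tex29/Sun5 cells. The 15 markers of meiotic division came to 833 ± 60.5 CPM, against 3089 ± 354 CPM in the Aurka/Tpx2 cells and 303 ± 73.1 CPM in the Tex29/Sun5 cells. Markers of pachytene spermatocytes came to 1966 ± 211 CPM, against 5340 ± 1439 CPM in the Psma8/Piwil1 cells. Markers of elongating spermatids came to 19142 ± 3624 CPM, against 9091 ± 3028 CPM in the Aurka/Tpx2 cells and 37779 ± 2770 CPM in the Tex29/Sun5 cells. The sums go with the label of round spermatid but do not test it, and meiotic message was still above the level of the next set.

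Among the somatic marker lists, the macrophage and Leydig sums came mostly from 1 gene each. Sertoli markers summed to 5.67 to 7.13 CPM in stressed and 2.11 to 4.70 CPM in control libraries, with Sox9, Amh, Amhr2, Inhbb, Fshr and Gata1 at 0. Leydig markers summed to 59.5 to 129 CPM in stressed and 73.3 to 124.5 CPM in control libraries. Of these, Fdx1, which encodes a ferredoxin of mitochondria, made up 57.1 to 124 CPM in stressed and 72.7 to 118 CPM in control libraries, with Insl3 and Nr5a1 at 0. The macrophage list summed to 1048 to 1325 CPM in stressed and 926 to 1304 CPM in control libraries, most of it Aif1 (942 to 999 CPM in stressed and 828 to 1168 CPM in control libraries), with Cd68, Cd14 and Cd163 at 0. Aif1 made up 74.4% of the sum in stressed replicate 1 and 88.8% to 89.95% in the other libraries. Without Aif1, Adgre1 and Mrc1, a choice made after their values were seen, that list came to 272, 18.4 and 7.15 CPM in stressed replicates 1 to 3, against 6.88, 33.5 and 4.88 CPM in control replicates 1 to 3. Stressed replicate 1 was the highest, through Apoe at 215 CPM and Cd74 at 31.4 CPM, and it also led in stromal markers, with 92.7 CPM against 18.0 to 44.4 CPM in the other libraries. The part of these in any comparison with stressed replicate 1 was not tested.

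Few genes stood well above every other set of cells. Of 3000 genes with at least 50 CPM, 557 (18.6%) were at their highest here, and of these 12 were at least 2-fold above every other set. These 12 were the rule genes Tssk5 (11.8 times the next set) and Itih3 (2.97 times), 5 other genes with a symbol and 5 without. Lrrc34 was 1.18 times the Aurka/Tpx2 cells. The next highest set was Tex29/Sun5 for 326 of the 557, Aurka/Tpx2 for 189, Psma8/Piwil1 for 26 and another for 16.

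After Tssk5 and Itih3, the largest ratio to the next set among genes with a symbol belonged to Zfc3h1, a zinc finger protein that links nuclear RNA to the exosome. It stood at 114, 112 and 86.3 CPM in stressed replicates 1 to 3 and at 105.8, 119 and 87.0 CPM in control replicates 1 to 3, an even level over libraries. Its mean of 104 CPM was 2.61 times that of the Psma8/Piwil1 cells. Stambpl1, a deubiquitinase (61.2 ± 14.6 CPM), Vta1, a cofactor of the ESCRT machinery that sorts membrane proteins (77.1 ± 30.6 CPM), Gimd1 (65.7 ± 25.2 CPM) and Smco4 (100.5 ± 22.0 CPM) were 2.58, 2.51, 2.24 and 2.14 times the next set.

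The other leading genes were 1.84 to 1.998 times the next set. Glipr1l1, whose product sits on the sperm surface in the mouse, stood at 891, 805 and 795 CPM in stressed and 635, 870 and 793 CPM in control replicates, against a mean of 405 ± 51.4 CPM in the Tex29/Sun5 cells. Npat, a coactivator of histone gene transcription, averaged 228 ± 78.7 CPM, against 124 ± 49.0 CPM in the Aurka/Tpx2 cells. It was highest in stressed replicate 1 (352 CPM) and control replicate 2 (301 CPM), the 2 libraries in which Tssk5 was also highest. Vldlr, a lipoprotein receptor, Zfp608, Adgre1, Zfp458, Cldnd1, Mat2b, a regulatory subunit of methionine adenosyltransferase, Ankrd45 and Fam228b complete the 15. Fam228b varied little, at 202 ± 12.2 CPM. Adgre1 is known as a macrophage surface marker, and it stood at 74.3 ± 16.0 CPM here, against 39.3 ± 11.1 CPM in the Tex29/Sun5 cells.

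**Figure D2:**
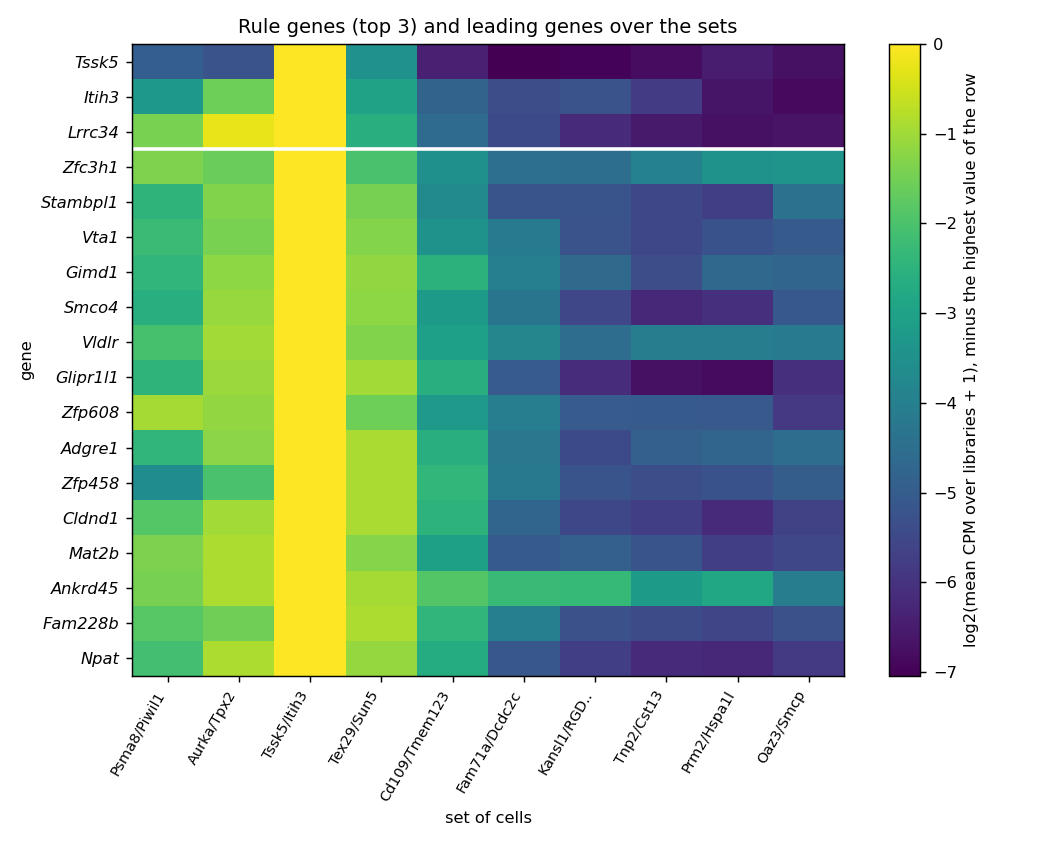
Each row is a gene and each column a set of cells, from meiosis at the left to late spermatids at the right; the colour is log2(mean CPM over libraries + 1) less the highest value of that row, so colours compare sets within a gene. The 3 rule genes are above the white line and the 15 leading genes below it, with yellow in the third column and intermediate colours on both sides of it.

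Most acrosome genes were above their level in the meiotic cells. Of 42 acrosome genes with a mean of at least 10 CPM over the cells and their 2 neighbours, 29 (69.0%) were above the Aurka/Tpx2 cells in all 5 libraries, against 31.9% of all 6225 genes at that level. Against the Tex29/Sun5 cells 10 (23.8%) were above and 20 (47.6%) below in all 6 libraries, beside 37.3% and 18.0% of all genes. Acrv1, an acrosomal matrix protein, averaged 196 ± 79.1 CPM, against 43.2 ± 19.0 CPM in the Aurka/Tpx2 cells and 191 ± 58.3 CPM in the Tex29/Sun5 cells. Spaca1, needed for the shape of the acrosome in the mouse, averaged 273 ± 76.7 CPM and was below the 366 ± 87.5 CPM of the Tex29/Sun5 cells in every library. Spink2, a protease inhibitor of the acrosome, ran the other way, at 5693 ± 502 CPM against 7411 CPM in the Aurka/Tpx2 cells and 4185 CPM in the Tex29/Sun5 cells.

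The kinases Tssk1b and Tssk3 and the kinase substrate Tsks did not share the peak of Tssk5. Tssk1b, a kinase of the same family, averaged 579 ± 142 CPM, against 173 CPM in the Aurka/Tpx2 cells and 945 CPM in the Tex29/Sun5 cells. Tssk3 averaged 283 ± 18.7 CPM, against 100.4 CPM in the Aurka/Tpx2 cells and 540 CPM in the Tex29/Sun5 cells, and Tsks 432 ± 107 CPM against 164.5 CPM in the Aurka/Tpx2 cells and 724 CPM in the Tex29/Sun5 cells. All 3 were above the Aurka/Tpx2 cells and below the Tex29/Sun5 cells in every library compared. Of 7 genes in this kinase list, 5 (71.4%) were above the Aurka/Tpx2 cells in all 5 libraries, against 31.9% of all genes. Below the Tex29/Sun5 cells in all 6 were 4 (57.1%), against 18.0% of all genes. Means above both neighbours were found for 2 (28.6%), against 17.3% of all genes. Tsacc averaged 775 ± 82.2 CPM, below the Aurka/Tpx2 cells (888 CPM) in all 5 libraries.

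Regulators of haploid transcription differed in how near they were to the level of the Tex29/Sun5 cells. Crem, the activator of the spermatid programme, was near its highest level, at 591 ± 31.1 CPM against 362 ± 42.2 CPM in the Aurka/Tpx2 cells and 651 ± 47.8 CPM in the Tex29/Sun5 cells. Its partner Fhl5 was at 284 ± 29.8 CPM, against 48.2 CPM in the Aurka/Tpx2 cells and 690 CPM in the Tex29/Sun5 cells. Sox30, a factor that round spermatid formation needs in the mouse, was at 29.4 ± 5.34 CPM, against 14.4 ± 6.08 CPM in the Aurka/Tpx2 cells and 69.96 ± 15.6 CPM in the Tex29/Sun5 cells. In the earlier Psma8/Piwil1 cells Sox30 averaged 28.1 CPM, close to its level here. Crem and Fhl5 had lower means in those cells, 287 and 132 CPM. Of 28 such genes, 12 (42.9%) were above the Aurka/Tpx2 cells in every library and 10 (35.7%) below. Of all genes the shares were 31.9% and 39.97%.

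Messages of histone replacement were present below their later levels. Hils1, a linker histone variant of spermatids, averaged 1418 ± 279 CPM, against 266 CPM in the Aurka/Tpx2 cells and 2532 CPM in the Tex29/Sun5 cells, and the chromatin protein gene Hmgb4 2211 ± 758 CPM, against 588 CPM in the Aurka/Tpx2 cells and 4585 CPM in the Tex29/Sun5 cells. The transition protein gene Tnp1 averaged 1388 ± 551 CPM, against 769 ± 507 CPM in the Aurka/Tpx2 cells and 5346 ± 1789 CPM in the Tex29/Sun5 cells. Tnp2, at 486 ± 242 CPM, was not above the Aurka/Tpx2 cells (520 ± 346 CPM). Both transition protein genes had higher means in the earlier Psma8/Piwil1 cells, Tnp1 at 1579 CPM and Tnp2 at 1100 CPM. Hils1 and Hmgb4 had lower means there, 291 and 1296 CPM. Of 31 genes of this list 17 (54.8%) were above the Aurka/Tpx2 cells in every library, against 31.9% of all genes. Below the Tex29/Sun5 cells in every library were 18 (58.1%), against 18.0% of all genes.

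RNA storage genes were more often below the meiotic cells, and flagellum genes more often above the Tex29/Sun5 cells, than genes at large. Ddx25, a helicase of the chromatoid body that holds stored messages, averaged 750.3 ± 127 CPM, against 958 ± 167 CPM in the Aurka/Tpx2 cells and 570.4 ± 70.4 CPM in the Tex29/Sun5 cells, and 18 of 28 genes of its list (64.3%) were below the Aurka/Tpx2 cells in all 5 libraries, against 39.97% of all genes. Of 72 flagellum genes, 17 (23.6%) were above and 30 (41.7%) below the Aurka/Tpx2 cells in every library, beside 31.9% and 39.97% of all genes. Above the Tex29/Sun5 cells in every library were 43 (59.7%), against 37.3% of all genes. Meig1, needed for building the manchette and tail in the mouse, differed little, at 2786 ± 351 CPM against 2434 CPM in the Aurka/Tpx2 cells and 2762 CPM in the Tex29/Sun5 cells.

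Genes of meiotic division were mostly below their level in the meiotic cells. Of 27, 22 (81.5%) were below the Aurka/Tpx2 cells in all 5 libraries and 0 above, against 39.97% and 31.9% of all genes, and 21 were above the Tex29/Sun5 cells in all 6. That list holds genes that define the Aurka/Tpx2 cells. Cyclin gene Ccnb1 stood at 251 ± 29.9 CPM, against 415 CPM in the Aurka/Tpx2 cells and 136.7 CPM in the Tex29/Sun5 cells. Of 16 genes of meiotic prophase, 5 (31.25%) were above and 8 (50%) below the Aurka/Tpx2 cells in every library, beside 31.9% and 39.97% of all genes. Among the 5 were the cohesin genes Smc3, at 299 ± 114 CPM, and Smc1b, at 1010 ± 200.3 CPM. Their means were 121 and 571 CPM in the Aurka/Tpx2 cells, and higher still in the Tex29/Sun5 cells, at 344 and 1119 CPM.

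Chaperone, folding and proteasome genes, like most genes, mostly had means between those of the neighbours. This held for 24 of 28 heat shock genes (85.7%), 16 of 17 genes of the unfolded protein response (94.1%) and 35 of 36 proteasome genes (97.2%), against 77.4% of all genes. Of the heat shock list 16 were below the Aurka/Tpx2 cells and 14 above the Tex29/Sun5 cells in every library, and of the unfolded protein response 10 and 11. Hspa5, the main chaperone of the endoplasmic reticulum, averaged 640 ± 97.6 CPM, against 1218 CPM in the Aurka/Tpx2 cells and 89.7 CPM in the Tex29/Sun5 cells, and Hsp90b1 451 ± 61.2 CPM, against 1031 CPM in the Aurka/Tpx2 cells and 97.8 CPM in the Tex29/Sun5 cells. Ptges3, a cochaperone of HSP90, averaged 226 ± 44.0 CPM, against 648 CPM in the Aurka/Tpx2 cells and 27.9 CPM in the Tex29/Sun5 cells. Of 36 proteasome genes, 27 (75%) were below the Aurka/Tpx2 cells and 21 (58.3%) above the Tex29/Sun5 cells in every library, against 39.97% and 37.3% of all genes. Psma6 was the other way, at 1440 ± 219 CPM against 932 CPM in the Aurka/Tpx2 cells and 1908 CPM in the Tex29/Sun5 cells. In the list of oxidative stress defence, Txndc8, a thioredoxin of the acrosome, averaged 520 ± 57.4 CPM against 59.7 CPM in the Aurka/Tpx2 cells and 880.4 CPM in the Tex29/Sun5 cells, and Sod1, the cytosolic superoxide dismutase, 352 ± 47.3 CPM against 54.7 CPM in the Aurka/Tpx2 cells and 552 CPM in the Tex29/Sun5 cells.

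Metabolic genes of sperm were near the level of a neighbour or between both. Ldhc, the lactate dehydrogenase of germ cells, averaged 1357 ± 260.3 CPM, against 1645 ± 235 CPM in the Aurka/Tpx2 cells and 1183 ± 210.1 CPM in the Tex29/Sun5 cells, and Gapdhs, the glycolytic enzyme of sperm, 1563 ± 469 CPM, against 557 CPM in the Aurka/Tpx2 cells and 2666 CPM in the Tex29/Sun5 cells. Of 14 genes of glycolysis and lactate, 6 (42.9%) were above and 6 (42.9%) below the Aurka/Tpx2 cells in every library. Of all genes the shares were 31.9% and 39.97%. Among genes of cell death, Diablo, a mitochondrial activator of apoptosis, averaged 71.9 ± 22.4 CPM, against 226 CPM in the Aurka/Tpx2 cells and 8.06 CPM in the Tex29/Sun5 cells.

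The median share of mitochondrial RNA lay between those of both neighbours, though single cells varied widely. The median cell had 0.365%, 0.556% and 0.969% mitochondrial counts in stressed replicates 1 to 3 and 0.484%, 0.325% and 0.700% in control replicates 1 to 3. In every library with 20 cells of each set, this was below the Aurka/Tpx2 cells, whose library medians ran from 1.93% to 3.16%, and above the Tex29/Sun5 cells, at 0.0126% to 0.0389%. All 12 mitochondrial genes with at least 10 CPM were below the Aurka/Tpx2 cells in all 5 libraries, and 9 were above the Tex29/Sun5 cells in all 6. Mt-co1, a subunit of cytochrome c oxidase, averaged 2166 ± 687 CPM, against 5208 ± 1290 CPM in the Aurka/Tpx2 cells and 259 ± 126 CPM in the Tex29/Sun5 cells. Neighbouring mitochondrial genes overlap or lie on 1 transcript, so they are not independent.

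The cells were not uniform. The second-best score was that of the Tex29/Sun5 set in 504 cells (48.1%) and that of a meiotic set in 471 (44.9%), made up of 324 with Aurka/Tpx2 and 147 with Psma8/Piwil1. Median mitochondrial counts were 0.248% (interquartile range 0.0754% to 0.610%) in the cells next to Tex29/Sun5 and 1.29% (0.682% to 2.12%) in the cells next to meiosis. The order held within each library: 0.159%, 0.111% and 0.522% in the cells next to Tex29/Sun5 against 1.11%, 1.48% and 1.69% in the cells next to meiosis in stressed replicates 1 to 3, and 0.169%, 0.186% and 0.290% against 1.08%, 1.03% and 1.32% in control replicates 1 to 3. In stressed replicate 1 these medians rest on 13 and 8 cells.

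**Figure D3:**
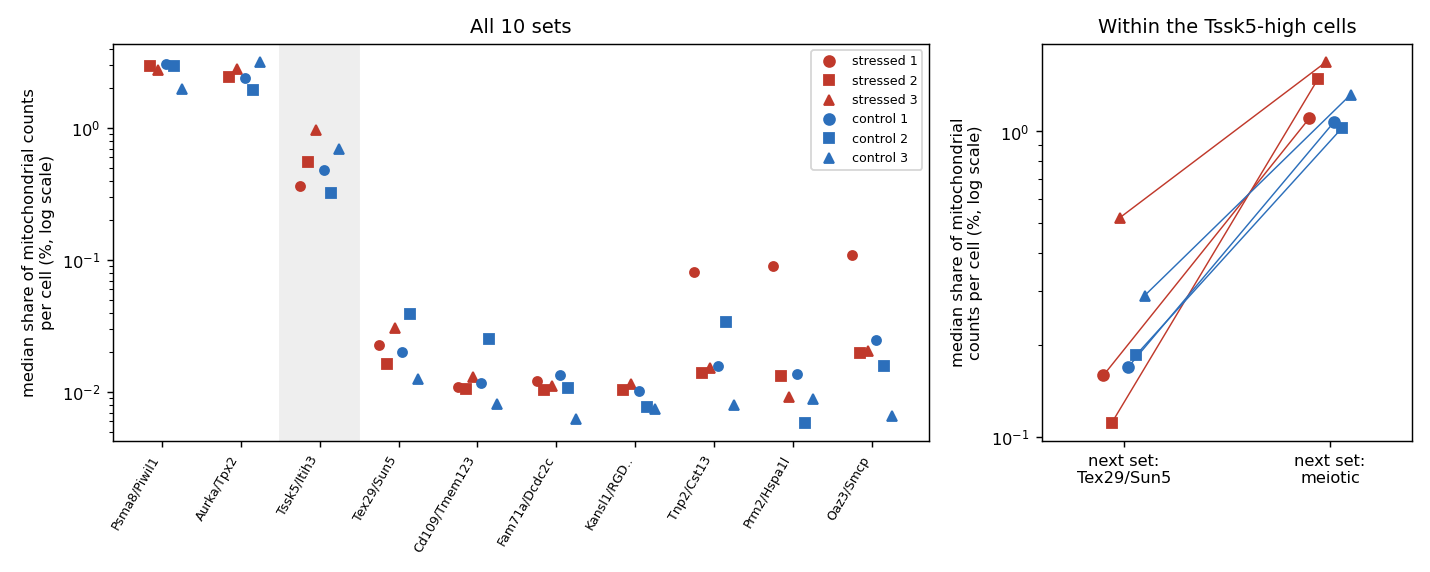
Left: each point is the median share of mitochondrial counts per cell (percent, log scale) in 1 library and set, for sets with at least 20 cells, with the cells described here shaded. Right: the same median within those cells, split by the set with the second highest score, with a line for each library; all 6 lines run from a lower median next to Tex29/Sun5 (0.111% to 0.522%) to a higher one next to meiosis (1.03% to 1.69%).

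That both ends of the set expressed its rule genes was fixed by the choice of cells, but the measure differed. Tssk5 was detected in 62.7% of cells next to Tex29/Sun5 and in 40.6% of cells next to meiosis, while Itih3 was detected in 82.3% next to Tex29/Sun5 and 89.8% next to meiosis, and Lrrc34 in 85.3% and 93.4% of the cells at those ends. Median counts per cell were close, at 36045 next to Tex29/Sun5 and 32711 next to meiosis. In the 5 libraries with at least 20 cells at each end, genes that took no part in the scoring also differed between the ends. Fhl5 averaged 415 ± 57.8 CPM next to Tex29/Sun5, against 135 ± 28.0 CPM next to meiosis. Sox30 averaged 42.7 ± 6.09 CPM next to Tex29/Sun5 against 14.8 ± 3.91 CPM next to meiosis, and Tnp1 1246 ± 438 CPM next to Tex29/Sun5 against 520.5 ± 129 CPM next to meiosis, each higher next to Tex29/Sun5 in 5 of 5 libraries. Crem differed less, at 632 ± 44.6 CPM next to Tex29/Sun5 against 533 ± 13.3 CPM next to meiosis, also higher in 5 of 5. At the end next to meiosis Sox30 and Tnp1 were near or below their means in the Aurka/Tpx2 cells, 14.4 and 769 CPM. Fhl5 and Crem were above theirs, 48.2 and 362 CPM.

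Of 17 genes of the unfolded protein response, 9 (52.9%) were lower next to Tex29/Sun5 than next to meiosis in all 5 libraries and 1 was higher, against 27.4% and 19.96% of all 6216 genes compared. Of 28 heat shock genes 14 were lower and 7 higher, and of 7 apoptosis genes 3 and 0. Of 41 acrosome genes 22 (53.7%) were higher and 8 lower. Hspa5 averaged 407 ± 76.9 CPM next to Tex29/Sun5, against 993 ± 92.9 CPM next to meiosis. Ptges3 averaged 129.6 ± 42.9 CPM next to Tex29/Sun5 against 394 ± 41.9 CPM next to meiosis, and Diablo 30.9 ± 10.5 CPM next to Tex29/Sun5 against 112.6 ± 28.3 CPM next to meiosis, each lower next to Tex29/Sun5 in 5 of 5 libraries. Of the 15 leading genes, 0 were higher and 2 were lower next to Tex29/Sun5 in all 5 libraries. The 2 were Cldnd1, at 77.8 ± 15.1 CPM next to Tex29/Sun5 against 119 ± 32.2 CPM next to meiosis, and Vldlr, at 96.9 ± 20.8 CPM next to Tex29/Sun5 against 119.7 ± 22.8 CPM next to meiosis. Zfc3h1 averaged 105.7 ± 11.8 CPM next to Tex29/Sun5 against 100.3 ± 23.1 CPM next to meiosis, Glipr1l1 769 ± 94.0 CPM next to Tex29/Sun5 against 811 ± 80.5 CPM next to meiosis, and Npat 204 ± 54.5 CPM next to Tex29/Sun5 against 210.3 ± 70.7 CPM next to meiosis.

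Whether stress changed the number of these cells was asked of their share in each library. They made up 5.62% (Wilson 95% interval 3.78 to 8.30), 4.39% (3.65 to 5.26) and 10.7% (9.53 to 12.1) of cells in stressed replicates 1 to 3, against 10.5% (9.37 to 11.9), 7.50% (6.37 to 8.80) and 11.9% (10.7 to 13.3) in control replicates 1 to 3. Stressed replicates 1 and 2 were the lowest, and stressed replicate 3 lay among the controls. The mean was 6.92% ± 3.37 in stressed and 9.996% ± 2.27 in control animals (SD, n = 3 each), a difference of -3.08 percentage points with p = 0.3 (2-sided exact permutation test, whose smallest p with 3 against 3 animals is 0.1). A share depends on how many other cells each dissociation released, so the number of cells in the animal was not measured.

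Within the cells, the part next to Tex29/Sun5 was 56.5%, 42.7% and 46.3% in stressed replicates 1 to 3 and 41.3%, 60.7% and 50.9% in control replicates 1 to 3. The groups overlapped, and control replicate 2 and stressed replicate 1 had the highest values. Genes per cell at 10000 counts had medians of 2475, 1998 and 1917 in stressed and 1924, 2483 and 1648 in control replicates, with means of 2130 ± 302 in stressed and 2018 ± 425 in control animals (SD, n = 3 each), with p = 0.8 in the same exact permutation test. The sign of that difference, 111 genes, was carried by single libraries: it was -61.3 without stressed replicate 1 and -73.8 without control replicate 3. The highest gene number in any cell also differed, at 3491 to 3499 in stressed and 3559 to 3996 in control libraries. Its part in the comparison was not tested.

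**Figure D4:**
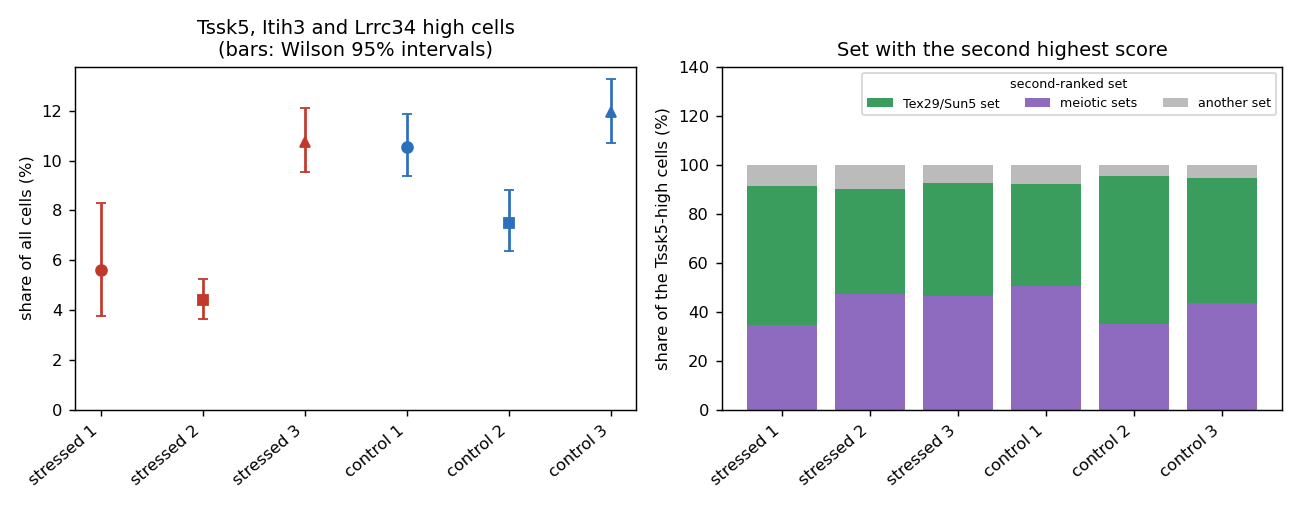
Left: the share of all cells in each library (percent), with Wilson 95% intervals, stressed replicates in red and control replicates in blue; the stressed values run from 4.39% to 10.7% and the control values from 7.50% to 11.9%. Right: the cells of each library by the set with the second highest score (percent), in which the Tex29/Sun5 part runs from 42.7% to 56.5% in stressed and from 41.3% to 60.7% in control libraries.

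Which genes stress changed in these cells was asked of counts summed per library. Of 9300 genes tested, 0 (0%) passed an adjusted p under 0.05 in either direction in the quasi-likelihood test of edgeR with Benjamini-Hochberg adjustment. An unadjusted p under 0.05 was found for 232 genes (2.49%), and for 710 (7.63%) the stressed and control libraries did not overlap. DESeq2 called 6 of 16488 genes (0.0364%), 4 higher and 2 lower. In simulated counts of this design edgeR recovered 89% of genes changed by 2 on the log2 scale and 100% of genes changed by 4. Only better expressed genes were changed there, with the spread typical of their level and no single cells holding most counts. Those shares therefore do not carry over to weakly expressed genes, more variable genes or genes that lean on single cells. CPM values from here on are scaled by the TMM factors, and fold changes are log2 of stressed over control. Each SE from here on was derived from the test, as the size of the log2 change over the square root of its quasi-likelihood F.

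The smallest p-values belonged to features with no symbol, named here after their values were seen, and both were among the DESeq2 calls. AABR07001902.1 stood at 27.6, 40.0 and 28.2 CPM in stressed replicates 1 to 3 and at 2.55, 2.70 and 3.80 CPM in control replicates 1 to 3, without overlap. Its log2 change was 3.39 (SE 0.48), with an adjusted p of 0.129 by edgeR, and 1.76e-08 to 0.846 over the alternatives. ENSRNOG00000071151 had 0, 0 and 19 counts in stressed replicates and 408, 213 and 650 counts in control replicates, with an adjusted p of 0.222 by edgeR, and 6.96e-11 to 0.9997 over the alternatives. It was seen in 3 stressed cells, all of replicate 3, and in 53, 53 and 51 control cells.

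Of genes with symbols that ranked highest without overlap, Eea1 was even over the libraries of each group. Eea1, which tethers early endosomes, stood at 66.8, 72.9 and 86.8 CPM in stressed replicates and 35.0, 24.7 and 37.5 CPM in control replicates, a log2 change of 1.22 (SE 0.32). Its counts came from 9, 35 and 76 stressed cells and 44, 38 and 54 control cells. Stx17, a membrane fusion protein of autophagosomes, stood at 8.71, 5.96 and 16.0 CPM in stressed and 1.82, 1.45 and 2.48 CPM in control replicates (log2 change 2.41, SE 0.69), from 2, 7 and 30 stressed cells and 5, 3 and 4 control cells. Both had an adjusted p of 0.9998 by edgeR, as did every gene with a symbol named below in this comparison. With no filter on low counts edgeR called 5 of those named below, at adjusted p = 3.39e-07 for Synj2 and Jade1, 0.00973 for Ccdc200, 0.00980 for RT1-Bb and 0.0277 for Zfp870.

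The other 4 ranked as higher leaned on single cells of stressed replicate 1. Of its counts there, 1 cell held 55 of 67 for Synj2, a phosphoinositide phosphatase, 47 of 48 for Jade1, a scaffold of a histone acetyltransferase complex, 67 of 83 for Ccdc200 and 56 of 58 for Zc2hc1b. Their log2 changes were 4.26 (SE 1.18), 5.28 (SE 1.53), 1.74 (SE 0.50) and 1.31 (SE 0.39). Without stressed replicate 1 they were 1.62 for Synj2, 2.34 for Jade1, 1.22 for Ccdc200 and 0.998 for Zc2hc1b, and without control replicate 3 Jade1 was 8.09. In stressed replicates 2 and 3 Synj2 stood at 4.54 and 5.89 CPM, against 0.897 to 3.10 CPM in the control libraries.

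Lower without overlap were Zfp870, a zinc finger gene, RT1-Bb, which encodes a class II antigen-presenting molecule, and Plxdc1, Tln2, Dapp1 and Parp6. Zfp870 stood at 1.45, 8.23 and 2.74 CPM in stressed and 19.5, 14.8 and 35.1 CPM in control replicates (log2 change -2.35, SE 0.64), from 1, 7 and 8 stressed cells and 40, 24 and 53 control cells. RT1-Bb stood at 5.81, 2.84 and 3.15 CPM in stressed and 49.3, 10.6 and 9.18 CPM in control replicates (-2.70, SE 0.76), with control replicate 1 far above the rest. Tln2, the adhesion protein talin 2, stood at 7.26, 5.67 and 12.3 CPM in stressed and 38.2, 17.9 and 26.4 CPM in control replicates (-1.67, SE 0.50). The changes of Plxdc1, Dapp1 and Parp6 were -2.48, -1.73 and -1.81. Zfp870 and RT1-Bb belong to families of similar genes, whose reads may be shared.

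**Figure D5:**
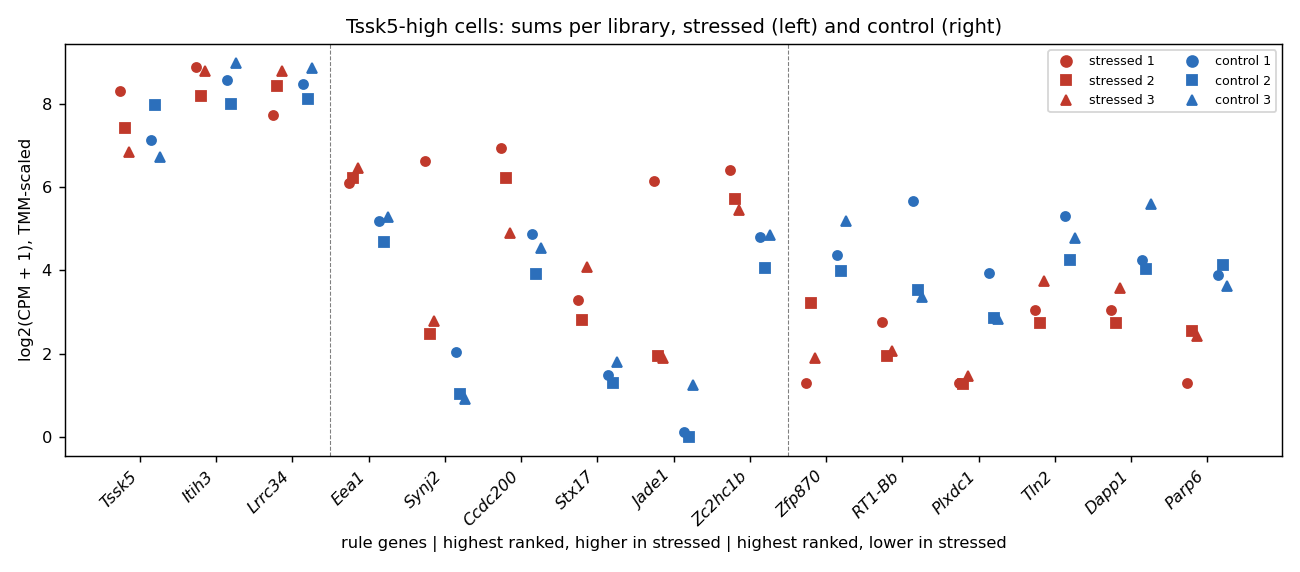
Each point is 1 library's level in the Tssk5, Itih3 and Lrrc34 high cells, as log2(TMM-scaled CPM + 1), with stressed libraries in red at the left and control libraries in blue at the right of each gene. The rule genes at the left overlap between groups, the next 6 were ranked as higher and the last 6 as lower without overlap, and the red circles of Synj2 and Jade1 (97.3 and 69.7 CPM in stressed replicate 1) stand far above the other libraries.

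The rule genes and the markers of the spermatid programme did not separate the groups. The log2 change was 0.26 (SE 0.40) for Tssk5, 0.073 (SE 0.28) for Itih3 and -0.12 (SE 0.29) for Lrrc34. Crem, at 597 ± 41.0 CPM in stressed and 590.2 ± 48.2 CPM in control animals (n = 3 each), had 0.014 (SE 0.19), Acrv1 0.13 (SE 0.36), Spaca1 -0.39 (SE 0.27) and Tnp1 0.33 (SE 0.34). The sign of Tssk5, Itih3, Lrrc34, Crem, Acrv1, Tnp1 and Ldhc turned when single libraries were left out. Ddx25 stood at 681, 697 and 698 CPM in stressed and 723, 972 and 734 CPM in control replicates, without overlap and with a log2 change of -0.23 (SE 0.20). Sox30 also did not overlap, at 24.7, 28.1 and 24.5 CPM in stressed and 33.2, 35.3 and 30.7 CPM in control replicates (-0.36, SE 0.35). Hspa2, a chaperone of meiotic and haploid germ cells, and Ldhc had -0.19 (SE 0.20) and -0.13 (SE 0.21). Prm1 was not analysed here.

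Tnp2 and the glucocorticoid receptor gene Nr3c1 had an unadjusted p under 0.05. Tnp2 stood at 396.5, 932 and 565 CPM in stressed and 476, 177 and 397 CPM in control replicates, a log2 change of 0.86 (SE 0.38), and the groups overlapped. That change was 0.45 to 1.13 with single libraries left out, and 2.53 with z-scores within each library, where Tnp1 was 1.55. Nr3c1 stood at 1.45, 0.284 and 1.92 CPM in stressed and 5.19, 9.15 and 2.62 CPM in control replicates (-2.18, SE 0.95). Those are 16 counts in stressed and 139 in control libraries, and a single cell held 28 of 57, 16 of 44 and 26 of 38 of them in control replicates 1 to 3.

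Of the 17 functional lists, each had 0 members called by edgeR, and each median log2 change lay between -0.09 and 0.18, beside -0.00093 over all genes. Of 43 acrosome genes 23 were higher and 20 lower, with Smap2, an acrosome-forming regulator of vesicle traffic in the mouse, at an unadjusted p under 0.05 (0.77, SE 0.35). Of 75 flagellum genes 31 were higher and 44 lower, with the sperm dynein heavy chain Dnah17 at -1.19 (SE 0.41). In the chromatoid body list 13 were higher and 20 lower, and 7 of 33 (21.2%) did not overlap between groups, against 7.63% of all genes, Tdrd12 of the piRNA pathway among them (-2.45, SE 0.79). Of 10 glucocorticoid genes tested 5 were higher and 5 lower, and of 30 heat shock genes 14 and 16. Of 24 autophagosome genes 11 were higher and 13 lower, and 6 (25%) did not overlap, against the same 7.63%. Hsp90b1 of the endoplasmic reticulum did not overlap either, at 508, 503 and 529 CPM in stressed and 412, 361 and 408 CPM in control replicates (0.38, SE 0.19).

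Of 12 mitochondrial genes, 11 were higher and 1 lower in stressed libraries, with a median log2 change of 0.24. Mt-nd2, a subunit of complex I, stood at 700.02, 1013 and 2969 CPM in stressed and 471, 525 and 885 CPM in control replicates (1.32, SE 0.47). Stressed replicate 3 was by far the highest, and it also had the highest mitochondrial share of all libraries in these cells, 0.969%. The other stressed libraries lay within the control range or just above it.

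Whether any difference was particular to these cells was asked by comparing the stress difference with that in the same animals' neighbouring cells. Against the Tex29/Sun5 cells, 0 of 11038 genes (0%) passed in edgeR with Benjamini-Hochberg adjustment, and 283 (2.56%) had an unadjusted p under 0.05. In simulated counts with the limits given above, this comparison recovered 59% of genes changed by 2 on the log2 scale. Of genes changed by 4 it recovered 100%. Against the Aurka/Tpx2 cells, in the 5 libraries with enough cells, 0 of 11527 passed and 357 (3.1%) had an unadjusted p under 0.05. Mt-nd2 had the smallest p there, named after the values were seen, with a difference of 0.81 in log2 change (SE 0.11) and an adjusted p of 0.136 by edgeR. For Stx17 the difference was -0.20 (SE 0.76) against the Tex29/Sun5 cells, and for AABR07001902.1 it was -0.20 (SE 0.51). Larger differences against those cells were seen for Eea1 (0.93, SE 0.33), Tnp2 (0.75, SE 0.17) and Nr3c1 (-3.45, SE 1.35). Their unadjusted p-values by edgeR were 0.015, 0.00085 and 0.025, and none passed after adjustment. Against the Aurka/Tpx2 cells the differences of Eea1, Tnp2 and Nr3c1 were 0.90 (SE 0.66), -0.073 (SE 0.41) and -1.02 (SE 1.23).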

How the data were processed

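Testis tissue was enzymatically dissociated and put through the Singleron GEXSCOPE protocol on an Illumina NovaSeq, per the labels' protocols. No source used here names the aligner, the genome build or how cells were filtered, or says if the deposited counts are reads or molecules. The authors deposited counts for every gene and cell of each library. The authors also deposited normalized values in natural log units, which equal the natural log of 1 plus the count per 10000 counts of the cell, with 0 values off by more than 1e-09. The tables list 21170 genes, 4950 of them by an identifier in place of a symbol.

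The normalized tables entered only the scoring of cells by the rule, and every level and test uses the counts. The members, the gene lists and the tests were chosen with earlier results of these data known. Of 739 different genes in 17 functional and 12 marker lists, 57 matched no name in the tables used and were left out. Counts were summed per library over the cells of a set with at least 20 cells. Stressed and control sums were compared by quasi-likelihood in edgeR 4.0.16 (R 4.3.3; TMM factors, filterByExpr, robust fit) and called at a Benjamini-Hochberg adjusted p under 0.05. The comparison with neighbouring sets fitted the animal as a block and tested the interaction. Shares and medians were compared with 2-sided exact permutation tests (scipy 1.17.1), and DESeq2 1.42.0 was an alternative. The cells were not screened with a doublet caller; leaving out the 5% with the highest counts in each library was an alternative, and 54 of the 1048 cells (5.15%) were among those.

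The genes named in the stress comparison are the rule genes, fixed genes, any gene called, and the 6 genes a direction with the smallest p among those with a symbol, at least 5 CPM and no overlap. The leading genes are the 15 with a symbol, at least 50 CPM and the largest ratio to the next set. Each animal gave 1 library. Libraries of a group differed by more than sampling noise (chi-square over its degrees of freedom 20.6 to 56.3), so each was counted as a replicate. The tests were also tried on simulated counts with 200 changed genes.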

Additional observations from a re-analysis of the deposited data

How the results depend on the processing

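The share of the cells was lower in stressed animals under each alternative, with a difference of -4.99 to -1.81 percentage points when single replicates were left out. The difference in genes per cell ran from -73.8 to 344 when single replicates were left out, so its sign is not fixed by these 6 libraries. Between stressed and control, DESeq2 called 6 genes, and edgeR, which called 0, called 116 (104 higher, 12 lower) with no filter on low counts and 0 to 2 with single replicates left out. The edgeR count was 2 without stressed replicate 1, AABR07001902.1 (adjusted p = 0.0339 by edgeR) and another without a symbol, and 1 without stressed replicate 3, ENSRNOG00000071151 (0.0160 by edgeR). Against the Tex29/Sun5 cells the count was 7 with no filter. Against the Aurka/Tpx2 cells it was 20 with no filter, 3 with a score margin of at least 0.5, and 0 to 6 with single replicates left out, the 6 without control replicate 3. The margin leaves stressed replicate 1 with fewer than 20 cells, so that library drops out. In each case the cause was not tested. Labels give the replicate numbers in both groups but name no shared batch, so the numbers were not taken as pairs. Deviations of same-numbered libraries had correlations of -0.038, -0.055 and 0.21, and those of other pairs ran from -0.26 to 0.21. With 3 libraries a group such values do not settle whether a batch was shared. With a replicate block edgeR called 0 genes, with 214 at an unadjusted p under 0.05.

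Log2 changes of 7 named genes changed sign when single replicates were left out, over ranges of -0.20 to 0.65 for Tssk5, -0.17 to 0.33 for Itih3, -0.39 to 0.11 for Lrrc34, -0.37 to 0.42 for Acrv1, -0.051 to 0.082 for Crem, -0.24 to 0.058 for Ldhc and -0.13 to 0.61 for Tnp1. Crem was -0.036 with no filter, and with the score margin Tssk5, Lrrc34, Acrv1 and Crem were -0.027, 0.093, -0.32 and -0.042. With z-scores within each library Acrv1 and Crem were -0.0078 and -0.022. None of these passed the test. The 23 cells of stressed replicate 1 limit the stress comparisons that include that library.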
